A study of Mus musculus with 31 samples.

Results

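Heat shock proteins and their co-chaperones were followed in embryonic mouse eyes with and without the long noncoding RNA gene Ftx. The members were the array probes whose gene name is that of an HSP70 or HSP110 protein (Hspa, Hsph1), an HSP90 protein (Hsp90), a small heat shock protein (Hspb), the mitochondrial chaperonin (Hspd1, Hspe1) or a J-domain protein (Dnaja, Dnajb, Dnajc). The array carries 108 such probes for 71 genes among its 55681 different probes. Of these, 63 probes for 47 genes had a mean signal above 500 in wild type (WT) eyes and were tested, among 14062 probes tested in all. The rule used no difference between groups. The members nearest to the minimum were Hspa12b at 553 and Hspb3 at 591 just inside it, and a Dnajc16 probe at 494 and a Dnajc17 probe at 481 just outside it. None of the 108 probes lies on the X chromosome.

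RNA was taken from whole eyes of normal appearance at embryonic day 13.5, after the pigmented epithelial layer had been removed by surgery. The 20 eyes came from WT females (3 eyes), WT males (3), Ftx-/Y males (3) and Ftx-/- females (11), all on a C57BL/6N background and without any treatment. The deletion was targeted in embryonic stem cells and is carried by the whole animal, so it is not restricted to the eye, and the sources used here do not say whether any 2 eyes came from the same embryo. The p-values therefore measure the spread between these eyes. The files used here hold 2 arrays for each Ftx-/- eye, which were averaged, and 1 for every other eye.

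Chaperones bind proteins that are not folded and help them to fold, to cross membranes or to be handed on for degradation. HSP70 proteins do so with ATP, J-domain proteins bring them their clients and trigger ATP hydrolysis, and HSP110 proteins exchange the nucleotide. HSP90 proteins act later, on clients such as kinases and steroid receptors, and the Hspd1 and Hspe1 proteins form the folding chamber of the mitochondrial matrix and its lid. The cytosolic genes are induced by heat shock factors, which bind repeated GAA units, and the genes of the endoplasmic reticulum (ER) by the unfolded protein response. In the lens, small heat shock proteins of the alpha-crystallin family are also structural proteins of the fibre cells.

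The sequences that these factors are known to bind were looked up in RefSeq promoters (GRCm38.p6, 250 bases before to 50 after each start), which were found for 57 of the 71 genes. They are shown for the tested genes with a match, which are described below. No promoter was found for Hsp90aa1, Hsp90ab1, Hspa8, Hspa9, Hspa13 and Hspb2, among others, so these were not searched. A heat shock element of 3 alternating units (GAA, TTC and GAA, or TTC, GAA and TTC, with 2 bases between units) was in the promoters of 4 of the 35 tested genes searched, Hspd1, Hspe1, Dnajb6 and Hsph1. It was in 198 of all 32851 promoters (0.603%), and in those of 179 of all 27025 genes (0.662%). Hspd1 and Hspe1 are transcribed away from each other, and the same 18 bases on chromosome 1 (55088059 to 55088076) lie in the promoters of both, beginning 89 bases before the Hspe1 start. The Hsph1 match lies after the start and is not printed. An ER stress element, CCAAT and CCACG with 9 bases between them on either strand, was in the promoters of 3 of the 35, Hspa5, Hsp90b1 (2 matches) and Dnajc3. It was in 39 of all promoters (0.119%), and in those of 37 of all genes (0.137%). The heat-induced genes Hspa1a and Dnajb1 had no 3-unit element in this window, and Dnajb9, a target of the unfolded protein response, had no ER stress element, which says only that these letters are not in the stretch searched. Capitals mark the elements, where overlapping matches are joined, and a match is not evidence that a factor binds there.
Hspe1, chr1:55088053-55088082, plus strand: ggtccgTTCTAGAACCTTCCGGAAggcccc
Dnajb6, chr5:29735818-29735897, plus strand: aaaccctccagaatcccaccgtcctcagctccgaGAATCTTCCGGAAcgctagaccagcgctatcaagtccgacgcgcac
Hspa5, chr2:34771980-34772069, plus strand: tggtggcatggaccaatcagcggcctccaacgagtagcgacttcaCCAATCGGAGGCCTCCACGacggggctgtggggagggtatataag
Hsp90b1, chr10:86705515-86705674, minus strand: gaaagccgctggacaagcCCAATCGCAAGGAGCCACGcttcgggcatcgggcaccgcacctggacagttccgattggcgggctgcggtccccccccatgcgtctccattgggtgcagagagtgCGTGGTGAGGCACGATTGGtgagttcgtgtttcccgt
Dnajc3, chr14:118937792-118937871, plus strand: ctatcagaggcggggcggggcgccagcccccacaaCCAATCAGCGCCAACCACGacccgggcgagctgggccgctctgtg

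The arrays lie on 4 slides, and this touches every comparison over all eyes except that of WT females with WT males. Slide 1 held every WT eye together with the first Ftx-/Y eye. The other Ftx-/Y eyes shared slide 2 with eyes 1 to 3 of the Ftx-/- females, whose eyes 4 to 7 filled slide 3 and eyes 8 to 11 slide 4. Ftx-/- females were thus never hybridized beside WT females, and slide and genotype cannot be told apart in females. In males slide and genotype are partly mixed, as 1 Ftx-/Y eye lay on slide 1 with the WT males and 2 on slide 2. The Ftx probe A_55_P2175002 had a mean signal of 101 in WT females, 106 in WT males, 16.5 in Ftx-/Y males and 21.7 in Ftx-/- females, where it was well above background on 0 of 3 and 9 of 22 arrays. The mean signal of the Y-linked gene Eif2s3y was 1810 and 1750 in the male groups and at most 9.13 in the female groups. In whole eyes, fewer cells of a type and less RNA per cell cannot be told apart. Signals below are normalized intensities, and log2 fold changes (log2FC) come from limma with Benjamini-Hochberg adjustment over all 14062 probes.

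The question of the female comparison was which chaperone genes differ between Ftx-/- and WT eyes. Of 63 member probes, 12 were higher in Ftx-/- females at an adjusted p under 0.05 (19.0%) and 8 lower (12.7%), beside 17.3% and 17.7% of all probes tested. In all, 20 of 63 were called (31.7%, beside 35.1% of all probes), so the share called was near the background. Among called probes, the largest rises were those of Dnaja2, Hspa13, Dnajb14, Dnajc8 and 1 Hspe1 probe, and the largest falls those of Hspb2, Dnajc4, Dnajc18 and Dnajc30. The groups did not overlap for 7 probes that were higher and 7 that were lower (11.1% each, beside 10.4% and 11.1% of all probes). The median log2FC of the members was 0.10, beside -0.01 over all probes, and 42 of 63 (66.7%) were above 0, beside 48.4% of all. With the trend of log2FC with the GC content of the probes taken out, 17 members were called (9 higher and 8 lower) and the median was 0.04, and with slide as a random block 10 were called. The shares of all probes called in these fits are not given, so these counts cannot be set against a background. With slide as a fixed term, which only the Ftx-/Y eyes tie to slide 1, no call in females held, while several values were as large or larger (Hspb2 -1.25, Dnaja2 A_65_P12977 0.60, Hspa13 0.44, Dnajc8 0.55) and others smaller (Hspd1 0.11, Dnajb14 A_55_P2359807 0.12).

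**Figure D1:**
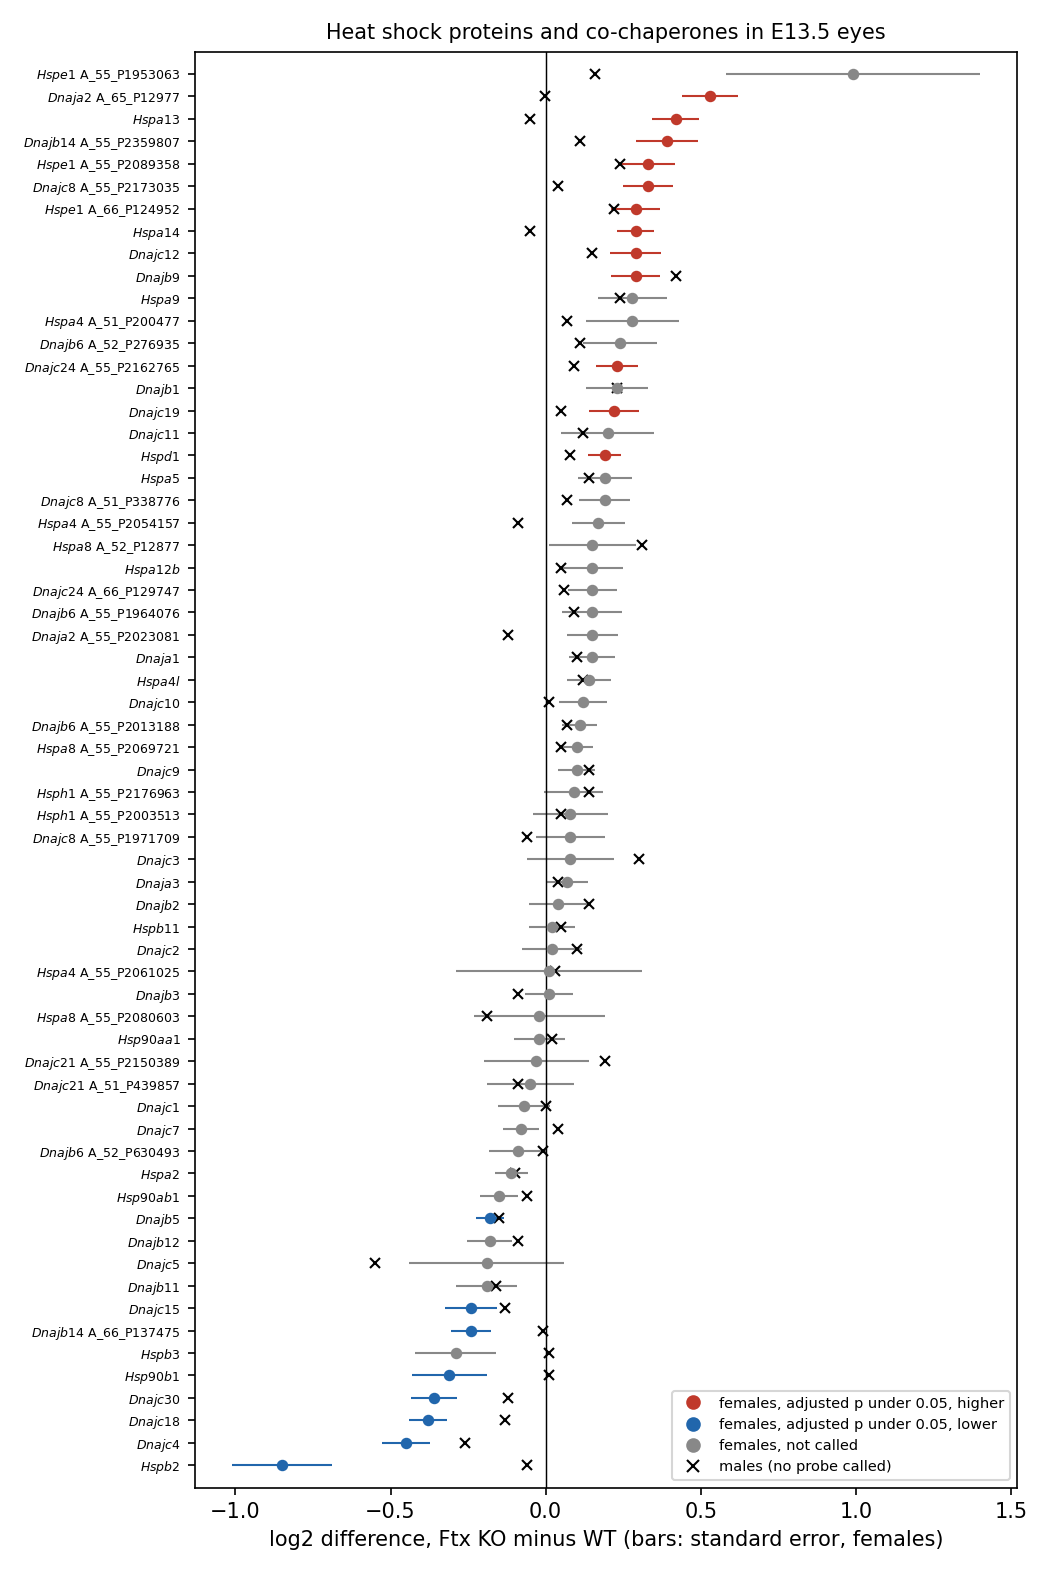
The log2 fold change (x axis) of each of the 63 member probes, listed in the order of their values in females. Dots with bars of the standard error show females (Ftx-/- against WT), where the colour gives the call in females. Crosses show males (Ftx-/Y against WT). Hspb2 lies lowest at -0.85 in females with -0.06 in males, and Dnaja2 and Hspa13 lie high in females and near 0 in males.

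Hspb2, a small heat shock protein of heart and skeletal muscle, showed the largest fall among the called members. Its probe (chr9:50559211-50559270, mm9) gave signals of 886, 809 and 1290 in the WT females and 839, 985 and 867 in the WT males. The Ftx-/Y males gave 705, 833 and 1070, and the Ftx-/- females 408 to 723 with a median of 513. Every Ftx-/- eye lay below every WT eye of either sex, while the Ftx-/Y eyes overlapped the WT males. The log2FC was -0.85 (SE 0.16, adjusted p = 0.000852) in females and -0.06 in males. By the methods' t-test the female fall did not pass after Benjamini-Hochberg adjustment (-0.86, adjusted p = 0.183). Hspb2 was also the only member called between Ftx-/- females and Ftx-/Y males (log2FC -0.66, SE 0.16, adjusted p = 0.0435, lower in 11 of 11 eyes than the male mean), a comparison in which 0.519% of all probes were higher and 1.49% lower (2.01% in all). Among the eyes of slide 2 alone that difference was -0.78 with an adjusted p of 0.318. Without any 1 of the Ftx-/Y eyes it did not pass (-0.80, -0.68 and -0.50 without eye 1, 2 or 3, adjusted p = 0.073, 0.235 and 0.332).

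**Figure D2:**
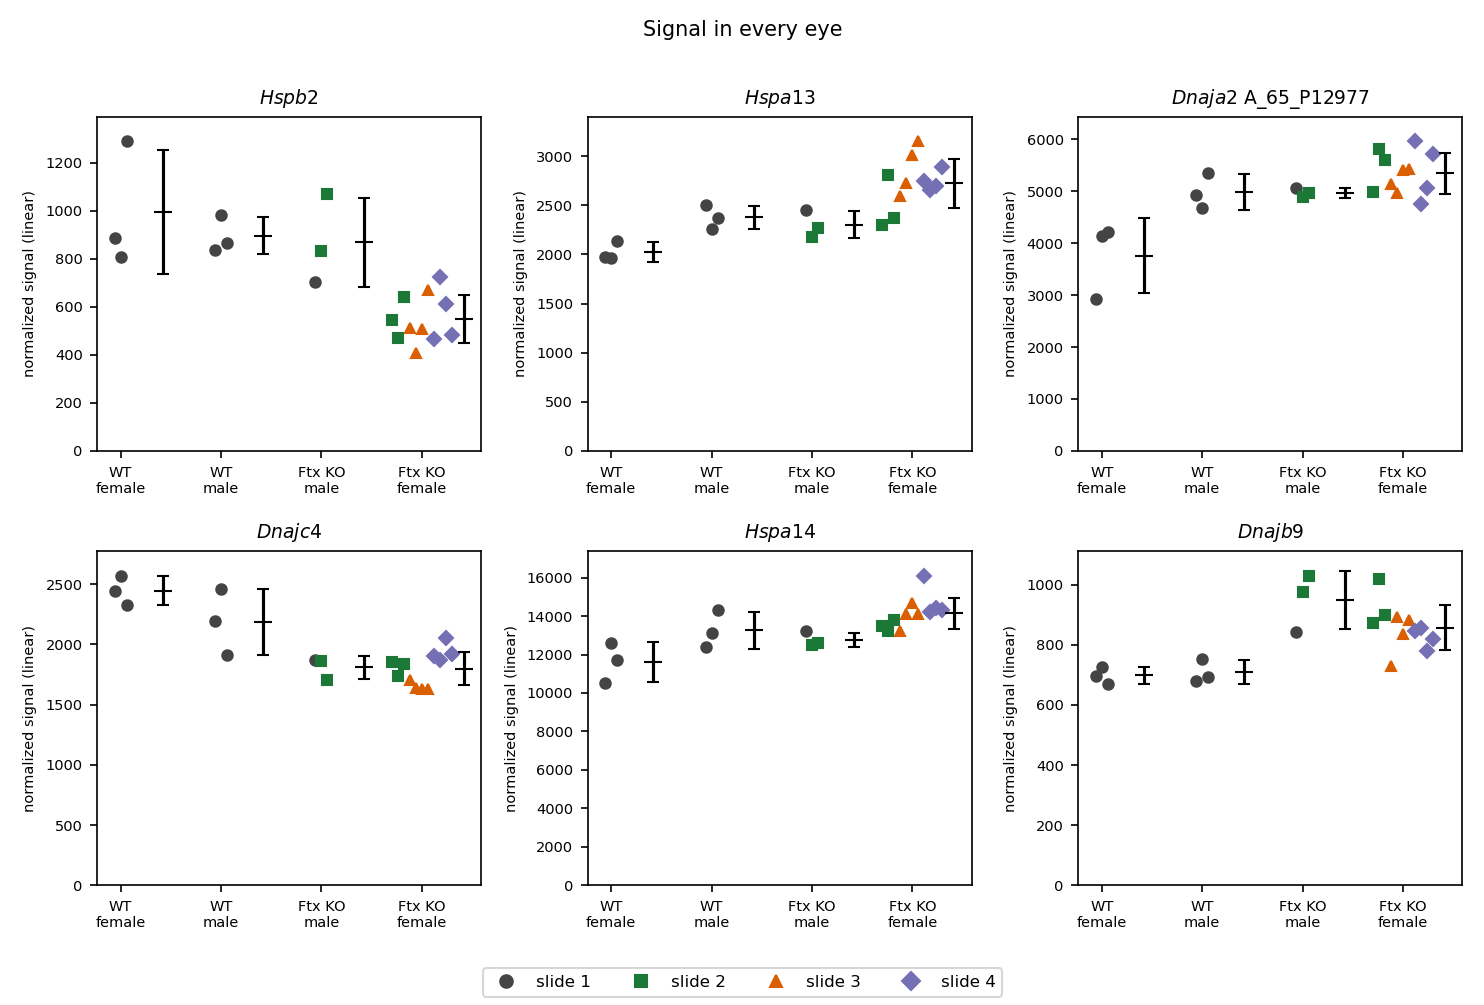
Normalized signal of 6 called members in every eye, where the groups stand side by side, the colour gives the slide and the mark beside each group its mean ± SD. The Hspb2 signals of Ftx-/- females (408 to 723) lie below all others except the lowest Ftx-/Y male at 705, and the Dnajb9 signals of both Ftx-deficient groups lie mostly above the WT groups.

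The lens markers moved with Hspb2. Cryab, the alpha-B crystallin and itself a small heat shock protein, fell in Ftx-/- females (log2FC -0.87, SE 0.125, adjusted p = 0.0000977), and its paralog Cryaa did not pass (0.08, adjusted p = 0.375). Of 12 lens markers tested, 10 were lower (beside 17.7% of all probes) and none higher, and their summed signal was 952000 to 1240000 in Ftx-/- females against 1210000 to 1350000 in WT females. Of the markers of other cells, the 2 mesenchyme markers tested, both higher, summed to 4480 to 30300 against 3300 to 4280, and the 3 pigment epithelium markers, 1 of them higher, to 3000 to 29100 against 4560 to 6660. The 6 erythroid markers, 2 of them higher, summed to 211000 to 383000 against 233000 to 266000 in females, and to 304000 to 630000 in Ftx-/Y males. The sums were 5420 to 7950 against 6180 to 6290 for 3 endothelial markers (none called), 6150 to 8480 against 6630 to 7440 for 5 macrophage markers (1 higher), 221000 to 323000 against 229000 to 265000 for 9 retinal progenitor markers (2 higher), and 115000 to 146000 against 122000 to 142000 for 9 retinal neuron markers, of which 2 were higher and 4 lower. The range of Ftx-/- females overlapped that of WT females in every list given here except mesenchyme, which rests on 2 of its 8 markers. Pigment epithelium rests on 3 of 9 markers and endothelium on 3 of 8, and no muscle markers are among these lists. The part of these cell types in the results for the chaperones was not tested.

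Among the small heat shock proteins, Hspb3, a muscle protein that binds Hspb2, was the only other member above the minimum. Its signal was 554, 551 and 716 in WT females and 389 to 664 (median 491) in Ftx-/- females, and the groups overlapped (log2FC -0.29, adjusted p = 0.0871). Hspb1, the heat-inducible HSP27, was below the minimum with signals of 244, 367 and 413 in WT females. In the Ftx-/- females it was 2660, 840 and 703 in eyes 1 to 3, 1630, 2230, 624 and 410 in eyes 4 to 7, and 398, 444, 497 and 576 in eyes 8 to 11. The Ftx-/- females thus spread widely and overlapped the WT females. Hspb6 had mean signals of 488 in WT females, 439 in WT males, 427 in Ftx-/Y males and 361 in Ftx-/- females, and Hspb11, an intraflagellar transport protein despite its name, was not called. Of the dimmer genes, Hspb8 had mean signals of 78.9 in WT and 143 in Ftx-/- females, Hspb7 42.9 and 18.3, and Hspb9 86.3 and 53.6. The mean signals of the small heat shock proteins thus differed in both directions.

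Of the ER and secretory HSP70 genes, Hspa13 rose and Hspa5 did not pass. Hspa13, a microsomal HSP70 without a peptide-binding domain (chr16:75755568-75755627), gave 1970, 1960 and 2140 in WT females and 2300 to 3150 (median 2730) in Ftx-/- females, all above the WT females. In females the log2FC was 0.42 (SE 0.076, adjusted p = 0.000501), and in males, where the signals were 2500, 2260 and 2370 in WT and 2450, 2180 and 2270 in Ftx-/Y eyes, it was -0.05. Hspa5 (BiP), the main HSP70 of the ER lumen, gave 33600, 37700 and 38000 in WT females and 36700 to 51700 (median 40300) in Ftx-/- females. Its groups overlapped, and the log2FC of 0.19 did not pass (adjusted p = 0.093). Hspa5 was highest on slide 2, where the 3 Ftx-/- eyes stood 0.39 above the WT females (adjusted p = 0.0013), against 0.11 and 0.13 on slides 3 and 4.

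Hsp90b1, the HSP90 of the ER (GRP94), fell close to the threshold. Its signals were 46100, 39400 and 38600 in WT females and 25000 to 40300 (median 33800) in Ftx-/- females, with some overlap. The log2FC was -0.31 (SE 0.12, adjusted p = 0.0481), but without any 1 of the 3 WT females it did not pass (-0.23, -0.34 and -0.35 without eye 1, 2 or 4, adjusted p = 0.25, 0.0862 and 0.0683), nor with slide as a random block (-0.32, adjusted p = 0.12) or by the methods' t-test (-0.30, adjusted p = 0.132). It was -0.07 (adjusted p = 0.638) for the eyes of slide 2, -0.45 for slide 3 and -0.33 for slide 4. The HSP90 genes of the cytosol were not called: Hsp90ab1, the constitutive form and the brightest member, had a log2FC of -0.15 (adjusted p = 0.0604) with all Ftx-/- eyes (162000 to 182000) below all WT females (187000 to 201000), and Hsp90aa1, the inducible form, -0.02 (adjusted p = 0.895). Hsp90ab1 was called with the 75th percentile (-0.33, adjusted p = 0.00512), with the 2 groups alone (-0.15, adjusted p = 0.0259) and on slide 4 (-0.19, adjusted p = 0.0382).

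Of the luminal J-domain partners of the ER, Dnajb9, Dnajb11, Dnajc3 and Dnajc10, Dnajb9 alone was called. Dnajb9 (ERdj4), an unfolded protein response target that binds Hspa5, rose in females. Its signals were 697, 726 and 671 in WT females and 731 to 1020 (median 855) in Ftx-/- females, which did not overlap (log2FC 0.29, SE 0.080, adjusted p = 0.00861). Dnajb9 was also the member with the smallest unadjusted p in males, where WT eyes gave 679, 754 and 692 and Ftx-/Y eyes 843, 977 and 1030. This male difference (0.42, SE 0.10, adjusted p = 0.176) did not pass. A second Dnajb9 probe, below the minimum with a mean signal of 157 in WT females and 84.9 in Ftx-/- females, went the other way (log2FC -0.85, adjusted p = 0.00366 when all probes were fitted), so the direction for the gene is uncertain. The rise of the first probe also did not pass with the GC trend taken out (0.17, adjusted p = 0.145) or with slide as a random block (adjusted p = 0.103). Dnajb11, a luminal partner of Hspa5, had a log2FC of -0.19 (adjusted p = 0.152), and Dnajc3 (p58IPK), an inhibitor of the kinase PERK, 0.08 (adjusted p = 0.676).

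Dnajc3 differed between slides of Ftx-/- females (slide 3 minus slide 2, log2FC -0.59). It gave 1290, 1240 and 1450 in WT females, 1880, 1800 and 1770 in Ftx-/- eyes 1 to 3, and 1110 to 1410 in Ftx-/- eyes 4 to 11. The Ftx-/- eyes of slide 2 were 0.46 above the WT females (adjusted p = 0.000594), those of slide 3 were at -0.13 and those of slide 4 at 0.01. The Ftx-/Y eyes, of which eyes 2 and 3 share slide 2, gave 1550, 1760 and 1850. Dnajb1 was also highest on slide 2, with 0.43 (adjusted p = 0.00184) on slide 2, 0.05 on slide 3 and 0.26 on slide 4.

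The core of the cytosolic HSP70 machinery did not pass in females. Hspa8, the constitutive HSP70, is measured by 3 probes that may share sequence with its pseudogenes and paralogs, and these gave log2FC values of 0.15, 0.10 and -0.02 in females (adjusted p = 0.405, 0.151 and 0.942). Hspa1a, the heat-induced form, was below the minimum, with 217, 132 and 152 in WT females and 105 to 164 in Ftx-/- females, and no probe carries the name Hspa1b. Both Hsph1 probes, for the inducible HSP110, had small values (0.08 and 0.09, adjusted p = 0.63 and 0.463). Dnajb1 (HSP40), the inducible partner of the HSP70 proteins, had a log2FC of 0.23 (adjusted p = 0.0962) with signals of 23000, 22000 and 23600 in WT females and 19700 to 34500 in Ftx-/- females. Dnaja1, a farnesylated partner of Hspa8, had 0.15 (adjusted p = 0.126). With the GC trend taken out, Dnajb1 (0.32, adjusted p = 0.0238), Dnaja1 (0.24, adjusted p = 0.017) and 1 Hspa8 probe (0.19, adjusted p = 0.0158) passed. By the methods' t-test Dnajb1 (0.24, adjusted p = 0.0282) and Dnaja1 (0.15, adjusted p = 0.0327) passed. With the eyes of slide 2 alone Dnaja1 (0.30, adjusted p = 0.00162) and Hsph1 A_55_P2003513 (0.33, adjusted p = 0.0198) were higher and Hspa8 A_55_P2080603 lower (-0.53, adjusted p = 0.00844), although this Hspa8 probe was at 0.11 and 0.22 with the eyes of slides 3 and 4. Of the other HSP110 genes, Hspa4 had values of 0.28, 0.17 and 0.01 from 3 probes, none of them called, and its probe A_55_P2061025 gave 1060 in Ftx-/- eye 8, the lowest of the 11.

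Dnaja2, another J-domain partner of Hspa8, carried the largest rise among called members, from 1 of its 2 probes. The probe A_65_P12977 (chr8:88062657-88062716) gave 2920, 4140 and 4210 in WT females and 4750 to 5960 (median 5410) in Ftx-/- females, which did not overlap (log2FC 0.53, SE 0.089, adjusted p = 0.000328). Without WT female 1, the lowest eye, the log2FC was 0.35, which still passed, whereas by the methods' t-test over all eyes the rise did not (0.51, adjusted p = 0.127). The WT males gave 4930, 4670 and 5360 and the Ftx-/Y males 5070, 4880 and 4970, so the WT females were the low group. The other probe gave 1440, 1670 and 1630 in WT females and 1460 to 1940 in Ftx-/- females and was not called.

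Hspa14, an HSP70 that acts with ribosomes on nascent chains (chr2:3406219-3406278), rose in females in all eyes. It gave 10500, 12600 and 11700 in WT females and 13200 to 16100 (median 14100) in Ftx-/- females, without overlap (log2FC 0.29, SE 0.061, adjusted p = 0.0015). It did not pass with the GC trend taken out (0.14, adjusted p = 0.0856) or by the methods' t-test (0.29, adjusted p = 0.0952). In males it gave 12400, 13100 and 14300 in WT and 13200, 12500 and 12600 in Ftx-/Y eyes, with a log2FC of -0.05.

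For the mitochondrial chaperonin, 3 of 4 probes were called higher in Ftx-/- females (beside 17.3% of all probes), and these calls depended on the processing. The 2 called Hspe1 probes (chr1:55148023-55148082 and chr1:55148026-55148085) overlap almost wholly and are no separate measures of the gene. Hspd1 (HSP60), which forms the ring (chr1:55134697-55134756), gave 39900, 38600 and 40600 in WT females and 41300 to 49200 (median 46100) in Ftx-/- females, without overlap (log2FC 0.19, SE 0.053, adjusted p = 0.0113). Hspe1 (HSP10), the lid, gave 26300, 25000 and 27400 in WT females with the probe A_66_P124952 and 26200 to 35700 (median 32400) in Ftx-/- females (0.29, SE 0.078, adjusted p = 0.00787). A second Hspe1 probe, A_55_P2089358, gave 17700, 17800 and 19000 in WT females and 17000 to 25200 (median 23400) in Ftx-/- females (0.33, SE 0.086, adjusted p = 0.00681). With both probes the groups overlapped through Ftx-/- eye 8, the lowest of the 11. With the GC trend taken out none of the 3 passed: Hspd1 was at 0.03 (adjusted p = 0.672), A_66_P124952 at 0.17 (adjusted p = 0.148) and A_55_P2089358 at 0.21 (adjusted p = 0.092). With slide as a random block their adjusted p was 0.125, 0.0755 and 0.0598, and without WT female 2 neither Hspd1 (0.16, adjusted p = 0.0672) nor A_66_P124952 (0.26, adjusted p = 0.0529) passed. The 2 genes share the heat shock element printed above. In males the probes gave 0.22 and 0.24 for Hspe1 (adjusted p = 0.387 for both) and 0.08 for Hspd1.

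The third Hspe1 probe, A_55_P1953063, differed from the other two in level and in pattern. It lies upstream of them on the chromosome and spans more than its own length (chr1:55147620-55147946). It gave 1210, 1060 and 1300 in WT females and 1170, 1300 and 1130 in Ftx-/- eyes 1 to 3, but 4450, 4710, 3790 and 4370 in eyes 4 to 7 and 1660, 2220, 2140 and 2610 in eyes 8 to 11. These sets are the eyes of slides 2, 3 and 4, and the log2FC against WT females was 0.02, 1.87 and 0.85 on them (adjusted p = 0.95, 0.000000729 and 0.00147). Over all Ftx-/- eyes it was 0.99 (SE 0.41) and did not pass (adjusted p = 0.0674), but did by the methods' t-test (1.18, adjusted p = 0.0281). Hspa9 (mortalin), the HSP70 of the mitochondrial matrix, had 0.28 (SE 0.11, adjusted p = 0.0571) and was higher in 11 of 11 Ftx-/- eyes than the WT female mean. It passed without WT female 4 (0.37, adjusted p = 0.0444) and with the GC trend taken out (0.33, adjusted p = 0.0348).

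**Figure D3:**
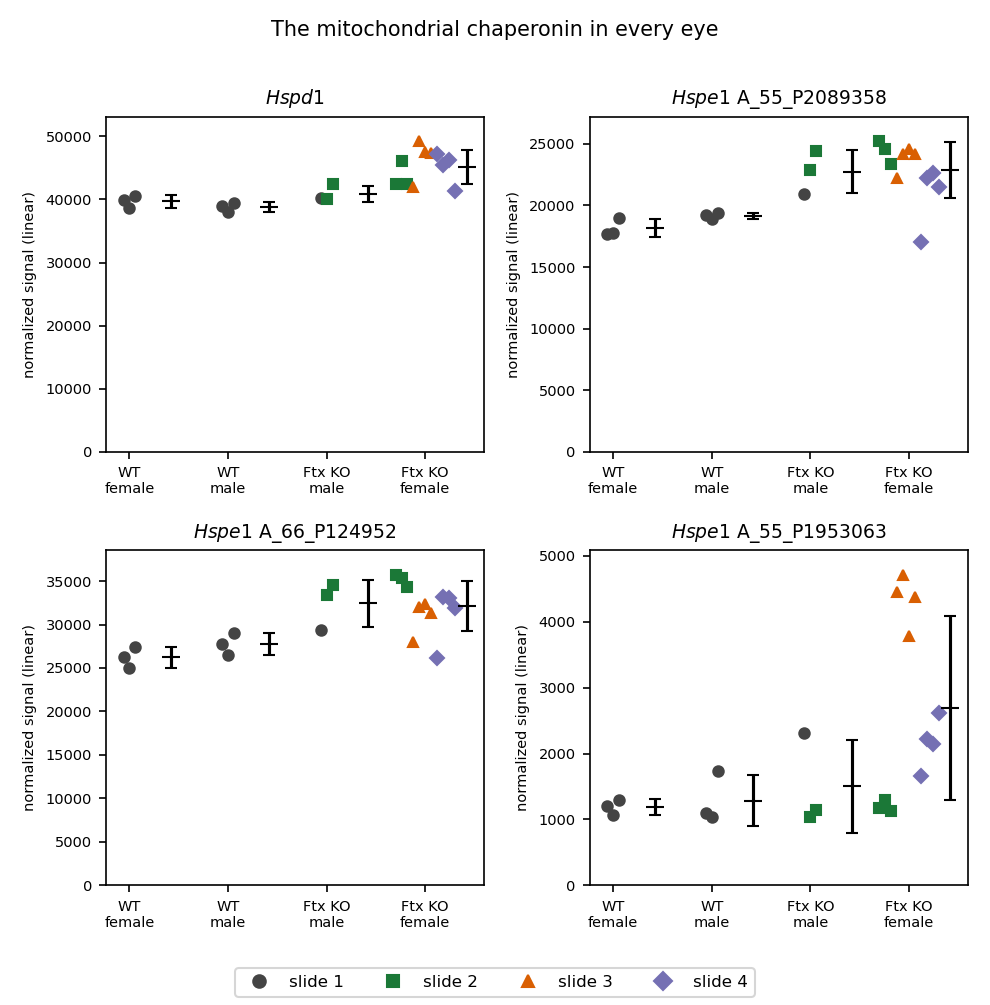
Normalized signal of Hspd1 and of the 3 Hspe1 probes in every eye, where the colour gives the slide and the mark beside each group its mean ± SD. Hspd1 and the brighter 2 Hspe1 probes lie higher in Ftx-/- than in WT females on each slide except for Hspe1 in eye 8, while A_55_P1953063 stays at 1130 to 1300 on slide 2 and reaches 3790 to 4710 on slide 3.

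J-domain genes, the largest class tested, held 6 of the 8 falls and 7 of the 12 rises, with 38 of the 63 probes. Of these 38 probes, 7 were higher and 6 lower, beside 17.3% and 17.7% of all probes, so the shares called were near the background. Dnajc4, a mitochondrial J-domain protein (chr19:7062474-7062533), gave 2440, 2570 and 2330 in WT females and 1630 to 2050 (median 1840) in Ftx-/- females, without overlap (log2FC -0.45, SE 0.076, adjusted p = 0.000329). With the GC trend taken out the value was -0.13 and did not pass (adjusted p = 0.115). In males it gave 2190, 2460 and 1910 in WT and 1870, 1860 and 1700 in Ftx-/Y eyes, which did not overlap either, but the log2FC of -0.26 (SE 0.095) had an adjusted p of 0.316. Dnajc18 fell by 0.38 on the log2 scale (adjusted p = 0.000248), from 1550, 1480 and 1560 in WT females to 981 to 1250 in Ftx-/- females. Dnajc30, a mitochondrial protein that lies with respiratory complexes, fell by 0.36 (adjusted p = 0.00145), from 3940, 3850 and 3780 to 2730 to 3430. For both genes all Ftx-/- eyes lay below all WT females. Without normalization between arrays neither Dnajc18 (-0.10, adjusted p = 0.65) nor Dnajc30 (-0.07, adjusted p = 0.733) passed. Dnajc15, a J-domain protein of the mitochondrial import motor, fell by 0.24 (adjusted p = 0.0337), but not without WT female 2 (-0.18, adjusted p = 0.194) or 4 (-0.25, adjusted p = 0.0724) or with the GC trend taken out (-0.14, adjusted p = 0.168), nor with slide as a random block (-0.24, adjusted p = 0.155) or by the methods' t-test (-0.23, adjusted p = 0.129). Its paralog Dnajc19 rose with the probe that was tested (0.22, adjusted p = 0.0372).

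Among the other J-domain genes, Dnajb14, an ER membrane protein, had probes in opposite directions. The probe A_55_P2359807 gave 660, 668 and 607 in WT females and 689 to 1050 in Ftx-/- females (log2FC 0.39, SE 0.10, adjusted p = 0.00639), but did not pass with slide as a random block (0.32, adjusted p = 0.0983) or with the Ftx-/- eyes of slide 2 alone (0.20, adjusted p = 0.15). The probe A_66_P137475 gave 2620, 2450 and 2480 and 1890 to 2350 (-0.24, SE 0.064, adjusted p = 0.00672). Neither overlapped, so no direction can be given for the gene. Dnajc8, a nuclear protein of the splicing machinery, rose with 1 of 3 probes (0.33, adjusted p = 0.00427) and Dnajc24, which takes part in diphthamide synthesis, with 1 of 2 (0.23, adjusted p = 0.014). Dnajc12, a partner of aromatic amino acid hydroxylases, rose by 0.29 (adjusted p = 0.0121), and Dnajb5 fell by 0.18 (adjusted p = 0.00538). With the GC trend taken out, Dnajc8 (adjusted p = 0.073), Dnajc12 (0.0597) and the lower Dnajb14 probe (0.0528) did not pass. With slide as a random block neither Dnajc12 (adjusted p = 0.169) nor the lower Dnajb14 probe (0.0522) passed, and with the eyes of slide 2 alone Dnajc12 (0.20, adjusted p = 0.142) and the lower Dnajb14 probe (-0.14, adjusted p = 0.126) did not. With the eyes of slide 3 alone Dnajc24 had 0.11 (adjusted p = 0.0761). By the methods' t-test Dnajb5 did not pass (-0.18, adjusted p = 0.152). Calls were also lost for Dnajc12 without WT female 4 (adjusted p = 0.0789), for Dnajc24 without WT female 1 or 2 (0.075 and 0.072), and for A_66_P137475 and Dnajb5 without WT female 1 (0.0501 and 0.0524). The 4 probes of Dnajb6, the gene with a heat shock element printed above, had values from -0.09 to 0.24 and none was called.

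Of the 45 member probes below the minimum, 23 were well above background on all 31 arrays and 4 on none. When every probe was fitted without a minimum, 8 of the 45 were called in females (6 higher and 2 lower, 17.8%), beside 15.8% of all 55627 probes. Dnajc13, an endosomal protein of clathrin uncoating, had mean signals of 390 in WT females, 484 in WT males, 716 in Ftx-/Y males and 683 in Ftx-/- females. The second Dnajc19 probe had 470, 485, 842 and 1300 in the same order. Both would pass a minimum on all groups only through the groups in which they are high, so no separate test of them is printed. Both are, however, among the 6 counted as higher above.

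In males, no member was called, beside 3 of all 14062 probes (0.0213%). At an unadjusted p under 0.05 limma gave 5 members (7.94%, beside 11.8% of all). Besides Dnajb9 and Dnajc4, the smallest p belonged to Dnajb5, with a log2FC of -0.15 (SE 0.058, adjusted p = 0.341), whose groups did not overlap. The median log2FC of the members in males was 0.05, beside -0.00096 over all probes. With the Ftx-/Y eyes of slide 2 alone, 4 members were called, 2 in each direction (beside 7.73% of all probes). These eyes lay on another slide than the WT males, so slide and genotype cannot be told apart there.

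For each probe the change in females was tested against that in males with an interaction term, and none of the members or of all probes passed (0 of 14062). At an unadjusted p under 0.05 there were 8 members (12.7%, beside 13.8% of all). The smallest p values were those of Hspa13 (difference 0.47, SE 0.12, adjusted p = 0.153), Dnaja2 A_65_P12977 (0.53, SE 0.14, adjusted p = 0.161) and Hspa14 (0.34, SE 0.098, adjusted p = 0.173). The fall of Hspb2 in females was 0.78 larger than that in males on the log2 scale (difference -0.78, SE 0.26, adjusted p = 0.212). The changes in these 4 genes were therefore not shown to differ between the sexes.

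Between WT females and WT males, all on slide 1, no member was called, beside 15 of all probes (0.107%), and 6 had an unadjusted p under 0.05 (9.52%, beside 10.2% of all). Dnaja2 A_65_P12977 came first, with WT females at 2920 to 4210 and WT males at 4670 to 5360 (log2FC -0.43, SE 0.11, adjusted p = 0.245). Dnajb3 (-0.25, adjusted p = 0.377) and Hspa14 (-0.20, adjusted p = 0.38) followed. Hspa13 was also lower in every WT female than in every WT male (-0.23, adjusted p = 0.407). The WT female values enter this comparison and the female knockout comparison alike, so the low WT females of Dnaja2, Hspa13 and Hspa14 are counted in both.

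The Ftx-/- females were also compared by slide, each against the same 3 WT females. The called members were 17 higher and 8 lower with the eyes of slide 2, 18 and 12 with slide 3 and 14 and 9 with slide 4, beside 38.1%, 49.1% and 34.5% of all probes called. Hspb2 had a log2FC of -0.83, -0.92 and -0.79 on slides 2, 3 and 4 (adjusted p = 0.00518, 0.00115 and 0.00591). Hspa13 had 0.30, 0.50 and 0.44, Hspa14 0.23, 0.28 and 0.35, and Dnajc4 -0.43, -0.57 and -0.34. The 3 slide comparisons share the WT females, and these genes were among those called over all Ftx-/- eyes, so their like signs are no separate evidence. Among the Ftx-/- females themselves, 30 of 63 members differed between slides 3 and 2 (47.6%, beside 38.0% of all probes), 7 between slides 4 and 2 (beside 10.7%) and 9 between slides 3 and 4 (beside 18.2%).

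Hsph1 and Hspa5 were each compared with other chaperones across the 11 Ftx-/- eyes, in 11 pairs. Hspa5 and Dnajb11, partners in the ER lumen, had r = 0.92 (permutation p = 0.00003, 0.00033 after Benjamini-Hochberg adjustment; rho = 0.90, permutation p = 0.00044), and r = 0.83 without the 2 eyes farthest from the median of Hspa5. Hsph1 and Dnajb1 had r = 0.85 (adjusted permutation p = 0.00467; rho = 0.85, permutation p = 0.00177), and r = 0.68 without the 2 farthest eyes. Hsph1 and Dnaja1 had r = 0.80 (adjusted permutation p = 0.0111; rho = 0.66, permutation p = 0.0309), and 0.63 without them. The other 8 pairs did not pass (adjusted permutation p from 0.12 to 0.894), among them Hspa5 with Hsp90b1 (r = 0.54) and Hspa5 with Dnajc3 (r = 0.62). The promoters of these 3 ER genes all hold the ER stress element. The eyes fall on 3 slides, and with the mean of each slide taken out the 3 relations were 0.85, 0.70 and 0.71 and no longer passed (adjusted permutation p = 0.0714, 0.0761 and 0.0761), while that of Hspa5 with Dnajc3 turned to -0.69. On that scale Hsph1 with Hspd1 (0.75, from 0.12) and with Hsp90aa1 (0.66, from 0.37) had adjusted permutation p = 0.0714 as well, so the 3 pairs did not stand apart from these. No slide holds 6 Ftx-/- eyes, so no relation was computed within a slide.

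**Figure D4:**
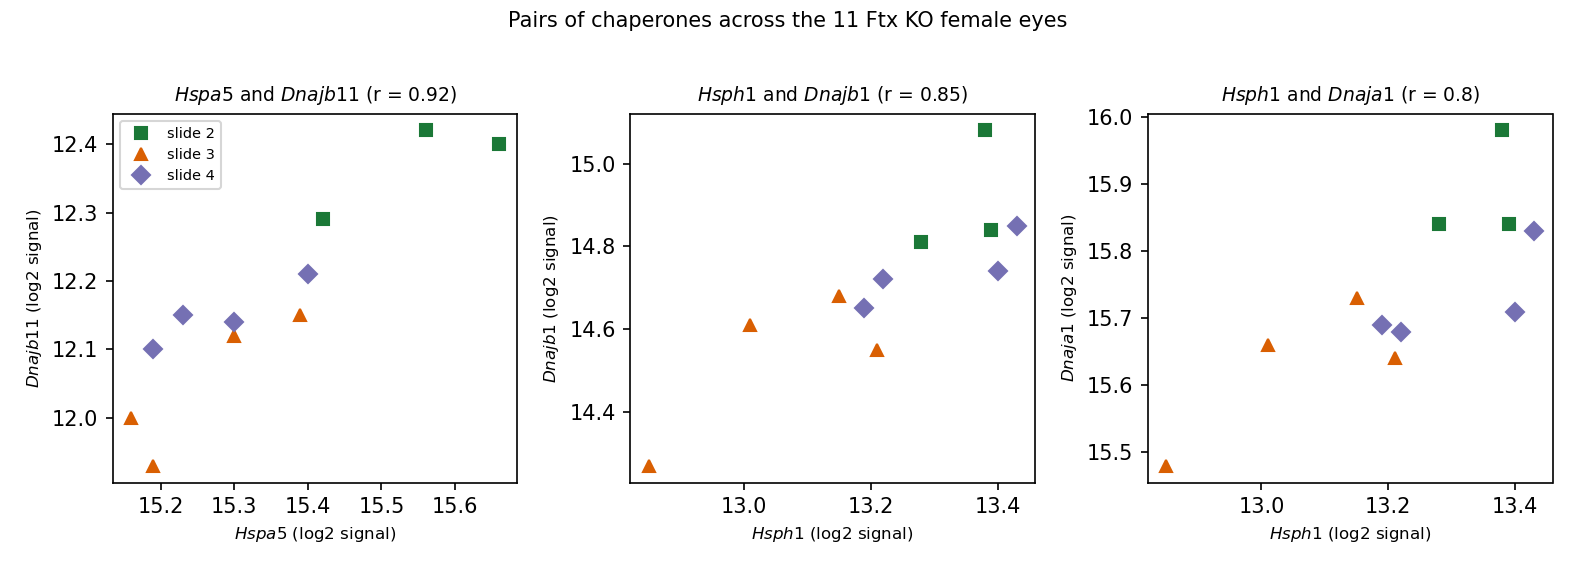
Log2 signal of both genes of 3 pairs (Hspa5 and Dnajb11, Hsph1 and Dnajb1, Hsph1 and Dnaja1) in the 11 Ftx-/- eyes, each point an eye coloured by slide. The points rise together (r = 0.92, 0.85 and 0.80), and the eyes of 1 slide tend to lie side by side.

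The partners of these chaperones were described by lists of other genes, by their calls in females. Of 28 regulators and co-factors of the cytosolic HSP70 and HSP90 proteins, 3 were higher and 9 lower, with a median of -0.06, beside 17.3% and 17.7% of all probes tested. The higher ones were Fkbp4 (0.45), Chordc1 (0.34) and Ppid (0.31), which bind HSP90. The lower ones included Stip1 (-0.36), which joins HSP70 to HSP90, the nucleotide exchange factors Bag1 (-0.20) and Hspbp1 (-0.23), and Hsf4 (-0.99, adjusted p = 0.000897), the heat shock factor of the lens. In males Hsf4 was at 0.03 and Fkbp4 at 0.43, and neither passed (adjusted p = 0.975 and 0.178).

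The same shares of all probes stand beside each list that follows. Of 17 other ER chaperones and stress genes, 3 were higher, among them P4hb, a protein disulfide isomerase, and Atf4 (0.31), and 2 were lower: Calr, the lectin calreticulin (-0.41), and Sil1, the exchange factor of Hspa5 (-0.30). Of 13 genes of the cytosolic chaperonin and prefoldin, Pfdn4 (0.48), Vbp1 (0.37) and Cct2 (0.31) were higher and Pfdn5 (-0.30) lower. Of 10 mitochondrial partners, the protease subunit Clpx (0.24) alone was called. Of 4 immediate early genes, which rise with handling of tissue, Btg2 (0.32) alone was called. The medians of these lists lay between -0.10 and 0.09, beside -0.01 over all probes.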

How the data were processed

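RNA of 20 eyes was measured on 31 1-colour (Cy3) Agilent arrays. The authors deposited, per spot, the background-subtracted intensity of Feature Extraction (11.0.1.1 per the file headers), with flags and mm9 probe positions. The authors also deposited a series table of these intensities, again not normalized between arrays, and its log2 values served as an alternative. Another WT female eye and second arrays of the other groups, which the methods name, were not analysed here.

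Spots flagged as non-uniform (120) or as population outliers (5639) were left out, as counted over all 31 arrays, each with 59305 probe spots, and none was saturated. Intensities were normalized with qspline, as in the methods (100 samples, 5 iterations), copies of a probe were averaged, as were the log2 values of both arrays of an Ftx-/- eye (correlation of arrays 0.994 to 0.999), and probes with a mean signal above 500 over WT eyes were kept. All 20 eyes were fitted together in limma 3.58.1 under R 4.3.3 with a trend on the mean, with Benjamini-Hochberg adjustment and a threshold of 0.05. Precision is limited by the number of eyes. The fit was tested on simulated data, in which 200 of 14041 probes had a log2 change of 1, and found 188 (94%) in the female and 175 (87.5%) in the male design, with 16 and 8 false calls. The simulated eyes held no difference between slides, and a change of 1 is larger than that of any called member. These shares therefore do not apply to smaller changes or to the mixing of slide and genotype. Correlations used 100000 permutations, two-sided.

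Named were a fixed set of core chaperones, the called members that moved the same way in every eye (at most 10 rises and 10 falls in females, 5 each in the other comparisons), else the 3 smallest p, and genes whose probes disagree. Others were singled out after their values were seen. Members and lists were chosen with earlier results of these data known. Tried instead were other normalizations, minimums and arrays, leaving out single WT or Ftx-/Y eyes, slide and replicate blocks, the GC trend taken out (spline of 4 degrees of freedom) and the methods' t-test. Comparisons among the slides of Ftx-/- females were added after seeing the data.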

Additional observations from a re-analysis of the deposited data

Results flagged for a closer look

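Hspa14, the ribosome-associated HSP70, was higher than the WT mean in 11 of 11 Ftx-/- females (log2FC 0.29) and in 0 of 3 Ftx-/Y males (-0.05), a difference of 0.34. The signals of Ftx-/Y and WT males overlapped, and the limma test of that difference did not pass (adjusted p = 0.173).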

How the results depend on the processing

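The direction of the 63 probes' median in females (0.10) was kept in every alternative run, and the count of called members in females (20) ranged from 0 to 30. It was 22 with the 75th percentile, 19 with quantile normalization, 23 with normexp and 25 of 108 without a minimum, 8 of them among the 45 probes added, and 15 to 18 when each WT female was left out. With slide as a fixed term, which only the Ftx-/Y eyes tie to slide 1, no member was called (14 at an unadjusted p under 0.05, and 11 of all probes called), and with slide as a random block 10 were. The replicate numbers did not pair the eyes (correlations of same-numbered eyes from -0.59 to 0.29), and with the replicate number as a block 14 members were called in females and 0 in males, in the difference of changes, between WT sexes and between Ftx-/- and Ftx-/Y eyes. Between Ftx-/- and Ftx-/Y eyes the count of 1 (Hspb2) became 2 with normexp. It was also 2 after adjustment of the methods' t-test, where Hspb2 itself was not called (adjusted p = 0.272). It was 0 with the series table, without a minimum, with the second array, with the 2 groups alone, when any Ftx-/Y eye was left out (0 to 0), with slide as a fixed term or a random block, and within slide 2. By fold limits of 1.2 and 0.8 with an unadjusted p, the count was 15 in females, 1 in males, 6 in the difference of changes and 1 between WT sexes. The calls over all probes are given only without a minimum (15.8% in females) and with slide as a fixed term. The other alternative counts of members in this paragraph therefore cannot be set against a background. The series table moved the median of all probes by 0.251 in females, so the split there was 17 higher and 1 lower, and the members' median became 0.37 in females, -0.06 in males, 0.39 in the difference of changes, -0.20 between WT sexes and 0.19 between Ftx-/- and Ftx-/Y eyes. With the GC trend taken out the count was 17 in females and the median 0.04, and of the 41 values of named genes 10 lost their call (Hspd1, both called Hspe1 probes, Dnajb9, Hspa14, Dnajc4, Dnajc8, Dnajc12, Dnajb14 A_66_P137475 and Dnajc15) and 4 gained one (Dnajb1, Dnaja1, Hspa9 and Hspa8 A_55_P2069721).

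In the series table the values of Dnajb14 A_66_P137475 (0.06), Dnajc15 (0.04), Dnajb5 (0.11) and Hsp90aa1 (0.18) turned, and that of Hspa8 A_55_P2080603 (0.11). This Hspa8 probe also turned with normexp (0.07), without WT female 1 (0.12), with slide as a fixed term (0.30) or a random block (0.11) and on slides 3 (0.11) and 4 (0.22), while on slide 2 it was called lower (-0.53). Hspa8 A_52_P12877 turned without WT female 2 (-0.04; 0.25 without WT female 1) and on slide 3 (-0.02), Hsph1 A_55_P2003513 without WT female 1 (-0.02; 0.17 without WT female 4) and on slide 3 (-0.13), Hsph1 A_55_P2176963 on slide 3 (-0.08), and Hsp90aa1 without WT female 4 (0.02) and on slide 4 (0.03). None of these was called except Dnajb14, Dnajc15 and Dnajb5. In the series table Hspd1, Dnajc4, Dnajc18, Dnajc30 and Hsp90b1 kept their sign but were not called, and the methods' t-test did not call Hspb2, Dnaja2, Hspa14, Hsp90b1, Dnajc15 and Dnajb5 but called Dnajb1, Dnaja1 and Hspe1 A_55_P1953063. The replicate block ended the calls of both Dnajb14 probes, Hspa14, Dnajc12, Hspd1, Hsp90b1 and Dnajc15, and called Hspa5 (0.31, adjusted p = 0.0444). Hsp90b1 was below 0.05 in 6 of 21 alternatives, Dnajc15 in 9, Hspd1 in 13 and Dnajc12 in 15. The correlation of Hsph1 with Hsp90ab1 was -0.30 with the 75th percentile and -0.03 with the first array, that of Hsph1 with Hspd1 -0.07 with the 75th percentile, and that of Hspa5 with Hsp90b1 -0.01 with the first array and 0.79 with the second (adjusted permutation p = 0.0191). With slide means taken out, Hsph1 had -0.01 with Hspe1, 0.71 with Dnaja1, 0.70 with Dnajb1, 0.75 with Hspd1 and 0.66 with Hsp90aa1, and Hspa5 had -0.16 with Hsp90b1, 0.85 with Dnajb11 and -0.69 with Dnajc3. The causes were not tested.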
